A study of Mus musculus with 8 samples.

Results

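The genes described here encode C1qbp and the proteins of the mouse mitochondrial ribosome whose symbols begin with Mrpl or Mrps. They were chosen by name: C1qbp and every gene whose symbol is Mrpl or Mrps followed by digits and at most 1 letter from a to c, which gave 79 of the 55359 gene IDs listed. The measurement was RNA sequencing of 8 samples of thymocytes sorted as double positive (carrying CD4 and CD8) with absent to intermediate surface TCR beta, from mice 5 weeks old. The 4 control samples (replicates 1 to 4) were LSL-Sting1-N153S/+, without Cre. The 4 Lck-cre samples (replicates 5 to 8) carried LSL-Sting1-N153S and Lck-cre. All 8 therefore carry the same conditional allele, in which a stop cassette flanked by loxP sites precedes a form of STING, N153S, that is active without its ligand. Lck-cre expresses Cre recombinase from the Lck promoter, which is active from early T cell progenitors on, so the recombination is not limited to the sorted stage. Replicates 1 and 5 were female and the other 3 of each group male. The labels do not tie samples to animals, and p-values thus cover only the spread between these samples, which may be technical.

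The mitochondrial ribosome, or mitoribosome, translates the few mRNAs of the mitochondrial genome, which encode membrane subunits of the respiratory chain and of ATP synthase. Its ribosomal RNAs are transcribed in the organelle, while all its proteins are encoded in the nucleus and imported. Many of those proteins have a counterpart in bacterial ribosomes, and the others were acquired in the lineage of mitochondria. C1qbp (also p32 or gC1qR), named after the complement component C1q, is an acidic protein found mainly in the mitochondrial matrix. There it binds RNA and is needed for mitochondrial translation. By these known positions the 79 genes comprised 30 proteins of the large subunit with a bacterial counterpart, 21 mitochondria-specific proteins of the large subunit, 16 of the small subunit with a bacterial counterpart and 10 mitochondria-specific ones of the small subunit. The remaining 2 lie outside the ribosome: C1qbp, and Mrps36, which despite its name is a part of the 2-oxoglutarate dehydrogenase complex. Mrps18a and Mrps30, named as small-subunit proteins, were counted with the large subunit, where they reside.

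Promoters of 4 genes are shown as the 160 bases before the annotated start, read 5′ to 3′ on the gene's strand from RefSeq (GRCm38.p6). C1qbp, Mrpl42 and Mrps22 stand for genes that rose in Lck-cre, and Mrpl58 for one with a high listed level that did not pass the test. Capitals mark the searched motifs listed after the sequences.
C1qbp, chr11:70983027-70983186, minus strand: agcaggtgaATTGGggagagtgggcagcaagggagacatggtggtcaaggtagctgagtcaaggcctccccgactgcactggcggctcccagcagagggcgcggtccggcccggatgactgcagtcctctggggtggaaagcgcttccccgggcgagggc
Mrpl42, chr10:95501950-95502109, minus strand: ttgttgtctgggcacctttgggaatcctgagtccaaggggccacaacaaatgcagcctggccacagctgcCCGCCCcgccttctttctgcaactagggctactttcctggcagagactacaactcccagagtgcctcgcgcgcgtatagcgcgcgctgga
Mrps22, chr9:98601680-98601839, minus strand: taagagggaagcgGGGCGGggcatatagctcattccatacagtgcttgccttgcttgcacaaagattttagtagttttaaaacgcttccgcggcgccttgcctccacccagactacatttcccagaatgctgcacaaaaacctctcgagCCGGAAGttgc
Mrpl58, chr11:115403592-115403751, plus strand: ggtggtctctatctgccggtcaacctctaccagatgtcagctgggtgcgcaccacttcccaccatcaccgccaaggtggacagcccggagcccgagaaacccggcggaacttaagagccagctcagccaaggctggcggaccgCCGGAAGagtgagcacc

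The motifs were searched on both strands in windows from 250 bases before to 50 after each start. They were the NRF1 core GCGCATGC, the ETS core CCGGAAG (bound by GABPA among others), the YY1 core AAGATGGC, the E-box CACGTG, the GC box GGGCGG and CCAAT. None of these cores contains another of them. Of the 79 genes, 70 matched the promoter table by symbol, with 76 windows. The ETS core stood in 35.53% of the 76 windows, in 19.96% of the windows of tested genes and in 8.858% of all 32851 windows. The YY1 core stood in 15.79%, 4.938% and 2.749%, and the NRF1 core in 10.53%, 5.734% and 2.712%. The E-box stood in 9.211% of the windows of these genes, 10.48% of those of tested genes and 7.15% of all. The GC box stood in 52.63%, 63.36% and 35.66%, and CCAAT in 40.79%, 38.49% and 37.41%. Split by the outcome described below, the ETS core stood in 36.84% of the 38 windows of genes that rose and 34.21% of the 38 others, and the YY1 core in 15.79% of both. The GC box stood in 63.16% and 42.11%, the NRF1 core in 5.263% and 15.79%, the E-box in 13.16% and 5.263%, and CCAAT in 42.11% and 39.47%. Only Mrpl2, Mrpl48 and Mrps16, all genes that rose, had several windows, and every window was counted. Those of Mrpl2 and of Mrps16 overlap, and the same E-box of Mrpl2 was counted in each of its windows. The shares of the genes that rose are thus shares of windows, not of genes. A match describes letters only, not a bound site, and these shares were not tested.

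Sting1, the gene carried by the allele, was listed at 15.3, 11.6, 13.4 and 11.9 FPKM (fragments per unit of gene length and of library size) in control replicates 1 to 4. In Lck-cre replicates 5 to 8 it was at 221, 85.4, 130 and 232 FPKM, a log2 change of 3.52 (SE 0.25, limma adjusted p = 0.00213). The labelled cell type was checked against 9 double positive markers, whose summed level was 5403 to 5779 FPKM in the controls and 4186 to 5415 in Lck-cre. Cd4, Rag1 and Rag2 were lower in Lck-cre and Ptcra was higher (limma adjusted p = 0.0356, 0.0141, 0.0157 and 0.0107). Ptcra was the only 1 of the 9 with a change above 0, and their median log2 change was -0.19. In 4 of the 9 every Lck-cre sample lay below every control, as in 12.3% of tested genes. Of 10 macrophage and dendritic cell markers, Cd74 and H2-Aa rose, to 4.10 ± 1.83 and 1.55 ± 0.684 FPKM (SD, n = 4). The summed level of those 10 was 1.55 to 1.82 FPKM in the controls and 3.88 to 11.97 in Lck-cre, and the other 8 stayed at or below 0.951 FPKM in every sample. NK or innate markers summed to 0.00716 to 0.0979 FPKM in the controls and 0.158 to 0.974 in Lck-cre, without overlap, with Ncr1 at 0 in all 8. B cell markers summed to 0.312 to 0.451 FPKM in the controls and 0.259 to 0.419 in Lck-cre, and erythroid markers to 0.0241 to 0.123 and 0 to 0.262. Epithelial markers summed to 3.45 to 5.55 FPKM in the controls and 3.84 to 5.13 in Lck-cre. What part these markers have in the results below was not tested. Values are from bulk RNA, in which fewer cells of a type and less RNA per cell cannot be told apart. FPKM values summed to 413835 to 437426 per sample in the controls and 437778 to 457145 in Lck-cre. The tables used here hold no read counts, and the depth is unknown.

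All 79 genes were expressed above the minimum for testing (1 FPKM in at least 4 samples), and 35 of them rose in Lck-cre while 0 fell. The test was limma on log2(FPKM + 0.5) with a term for sex, adjusted over all 12337 genes tested, at an adjusted p under 0.05. Of all tested genes, 15.4% rose and 10.4% fell. At an unadjusted p under 0.05, 43 of the 79 were higher and 0 lower, beside 23.4% and 18% of all tested genes. The fitted change was above 0 in 76 of the 79, against 52% of all tested genes. Its median was 0.22 on the log2 scale, beside 0.01 for all tested genes. In 33 genes every Lck-cre sample lay above every control sample and in 0 every one lay below, against 17.1% and 12.3% of tested genes, and 29 of those 33 had passed the test. Changes were small: only C1qbp and Mrpl17 exceeded a 1.5-fold ratio of mean FPKM, Mrpl17 with a log2 change of 1.15 in FPKM but 0.28 in scaled coverage (the deposited coverage per base divided in each sample by its commonest ratio to FPKM), and the smallest change that passed was 0.22. On either side of the threshold lay Mrpl18 (limma adjusted p = 0.0493) and Mrps23 (0.0506). With the deposited TPM values, which sum to the same total in each sample, 20 of the 35 passed and 0 fell, at backgrounds of 10.5% higher and 16.8% lower. Without replicate 1, 2, 4, 5 or 7 the count was 9, 10, 16, 9 and 15, at backgrounds of 3.48%, 6.82%, 10.6%, 3.33% and 9.01%. It was 8 with no filter on low values (background 2.41%), 9 in males only (3.37%) and 4 at an adjusted p under 0.01 (3.11%). Leaving out either female turns the fit into a comparison of males, since the sex term takes up the other female.

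**Figure D1:**
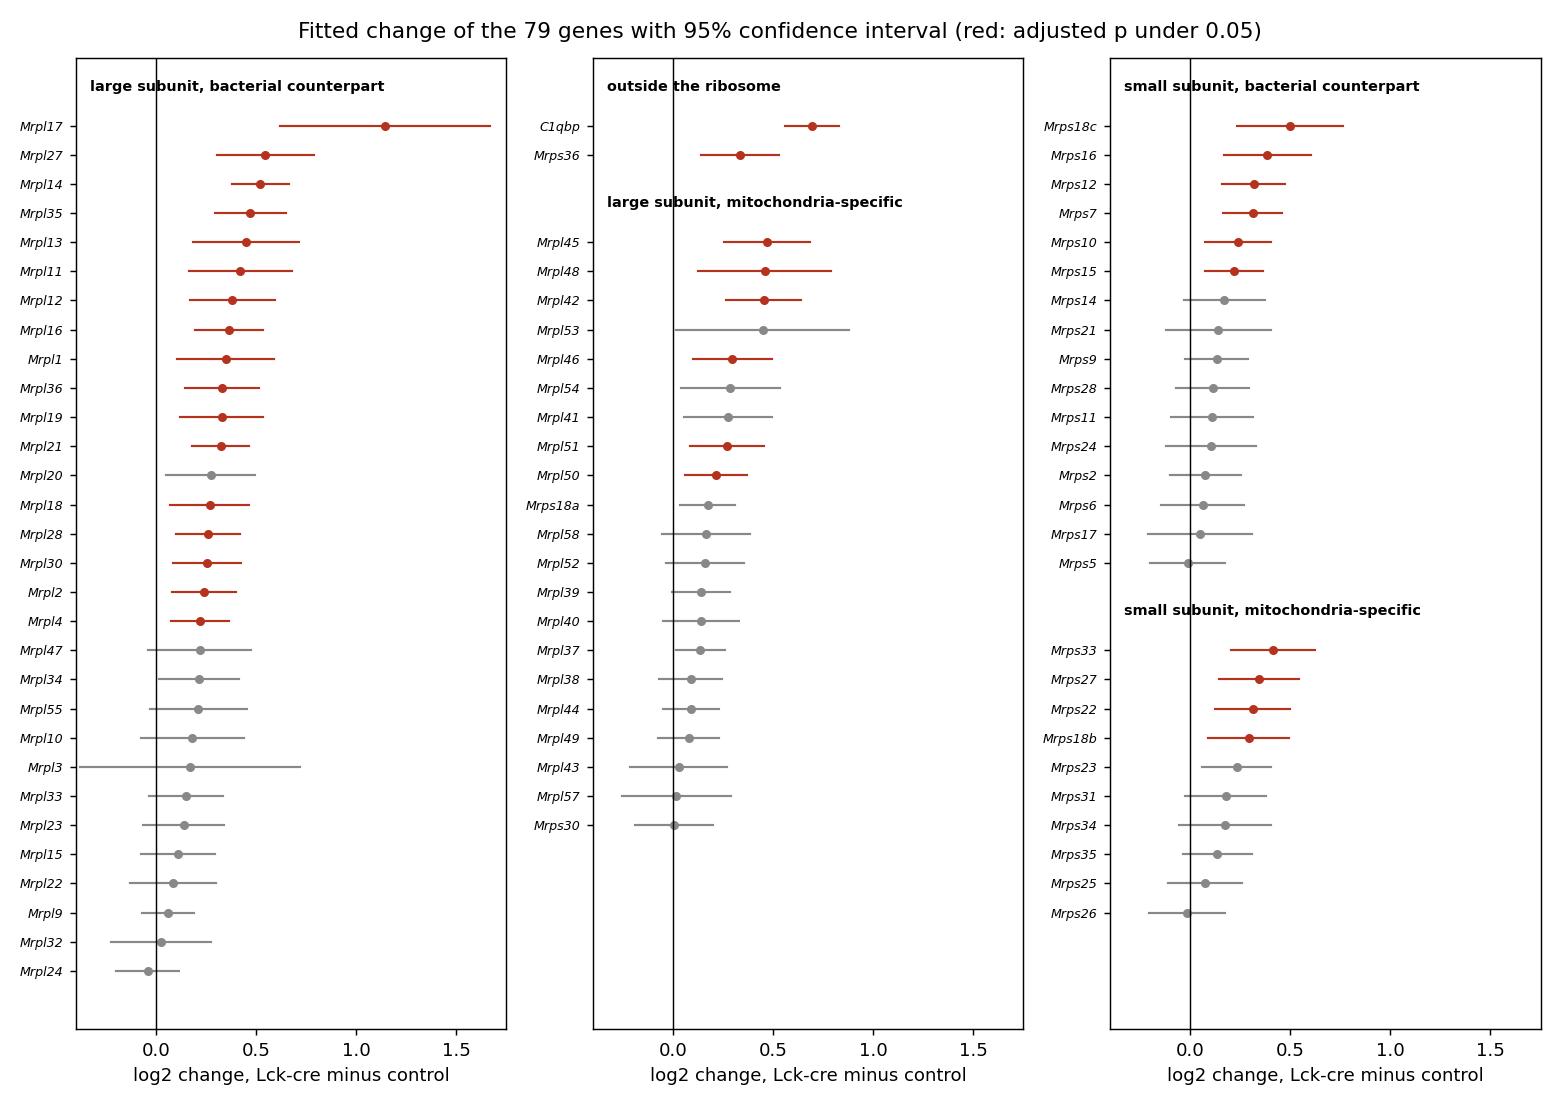
Fitted log2 change (Lck-cre minus control, horizontal axis) of each of the 79 genes with its 95% confidence interval, grouped by position in the ribosome and ordered by size within a group. Red marks the 35 genes that passed the test and grey the 44 that did not, of which 41 still lie above 0.

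C1qbp had the smallest adjusted p of the 79 genes and, after Mrpl17, the largest change in FPKM. The gene (ENSMUSG00000018446.9) is listed by the files on chromosome 11 at 70868662 to 70873852, minus strand, with no build named, and no other listed gene overlaps it. Its level was 32.1, 36.1, 37.2 and 35.6 FPKM in control replicates 1 to 4 and 56.2, 54.4, 60.5 and 58.5 FPKM in Lck-cre replicates 5 to 8. The groups did not overlap, and the lowest Lck-cre sample lay well above the highest control. Mean levels were 35.3 ± 2.22 and 57.4 ± 2.68 FPKM (SD, n = 4), a ratio of 1.63. This is 0.70 on the log2 scale (SE 0.06, 95% confidence interval 0.56 to 0.83, limma adjusted p = 0.00366). Among all tested genes 1.78% had a change at least as large. By level, C1qbp ranked 12 of the 79 in the controls and 4 in Lck-cre. Its call held with every setting tried, with changes of 0.63 to 0.73. In TPM its mean was 83.1 ± 5.35 in the controls and 128 ± 4.66 in Lck-cre (SD, n = 4).

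**Figure D2:**
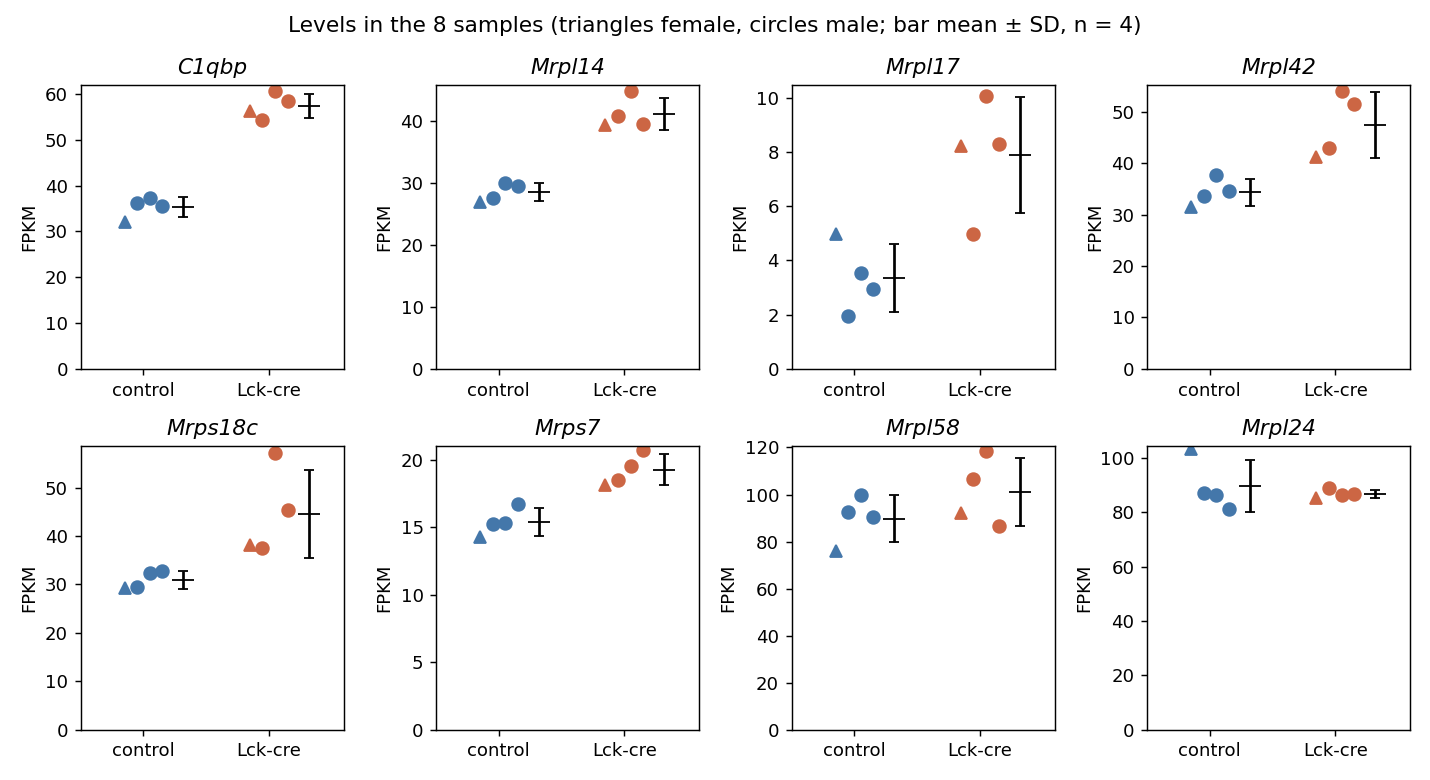
FPKM (vertical axes, from 0) of 8 genes in each of the 4 control and 4 Lck-cre samples, triangles for females and circles for males, with mean and SD beside the points. The groups are separate in C1qbp, Mrpl14, Mrpl17, Mrpl42, Mrps18c and Mrps7, and overlap in Mrpl58 and Mrpl24.

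Among the 30 large-subunit proteins with a bacterial counterpart, 17 rose and 0 fell, with a median log2 change of 0.26. Mrpl14, a protein of the subunit interface where the assembly factor Malsu1 binds, was at 27.0, 27.6, 30.0 and 29.5 FPKM in the controls and 39.4, 40.8, 44.99 and 39.6 FPKM in Lck-cre. All 4 Lck-cre samples were above all controls, and the log2 change was 0.52 (SE 0.06, limma adjusted p = 0.00619). Mrpl14 lies on chromosome 17 at 45997248 to 46009421, plus strand, and overlaps Tmem63b. Mrpl35 was at 4.07, 4.26, 4.63 and 4.49 FPKM in the controls and 6.46, 6.33, 6.37 and 5.84 FPKM in Lck-cre, again without overlap, and changed by 0.47 (SE 0.08, adjusted p = 0.00828). Mrpl21 was at 22.7, 21.5, 24.3 and 23.6 FPKM in the controls and 27.9, 28.2, 29.0 and 30.8 in Lck-cre, a smaller change of 0.33 (SE 0.06, adjusted p = 0.011). Mrpl27, whose bacterial counterpart reaches the peptidyl transferase centre, rose from 20.5 ± 2.0 to 30.3 ± 4.28 FPKM (SD, n = 4).

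Mrpl17, a protein near the exit of the nascent chain tunnel, had the largest change in FPKM of the 79 genes and the lowest mean level in the controls. With scaled coverage its log2 change was 0.28 (limma adjusted p = 0.0490), below the 0.68 of C1qbp and the 0.52 of Mrpl14 on that scale. It was at 4.96, 1.94, 3.54 and 2.93 FPKM in the controls and 8.24, 4.97, 10.1 and 8.28 FPKM in Lck-cre. The lowest Lck-cre value, in replicate 6, is nearly the highest control value, in replicate 1. The fitted change was 1.15 in log2 (SE 0.23, 95% confidence interval 0.62 to 1.67, limma adjusted p = 0.0123), and with no filter on low values the adjusted p was 0.0628. The gene is listed on chromosome 7 at 105452413 to 105460306, minus strand, and overlaps Gm15645. Mrpl12, the counterpart of the bacterial stalk protein that recruits translation factors, was at 18.0, 18.3, 23.4 and 21.8 FPKM in the controls and 24.5, 24.3, 27.9 and 30.0 FPKM in Lck-cre. Its groups did not overlap, and it changed by 0.38 (SE 0.09, limma adjusted p = 0.0206). Without replicate 1, 2, 5 or 7 its adjusted p was 0.0799, 0.0603, 0.0799 and 0.0531.

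By mean FPKM in the controls, Mrpl58 and Mrpl24, which lines the tunnel exit, were the highest of the 79 genes. In deposited coverage Mrpl58 was at 165 to 234 over the 8 samples, below Mrpl24 at 310 to 402 and Mrpl18 at 312 to 491. The high rank of Mrpl58 thus holds for FPKM only. Mrpl24 did not pass the test. It was at 103, 87.3, 86.6 and 81.3 FPKM in the controls and 85.3, 89.1, 86.3 and 86.7 FPKM in Lck-cre. Apart from control replicate 1 all values lie close together, and the log2 change was -0.04 (SE 0.07, limma adjusted p = 0.698). Without replicate 1 or 5 it was 0.04. Mrpl3 had the widest error of the 79, an SE of 0.24, with a lowest control value of 17.0 FPKM in replicate 4 and a lowest Lck-cre value of 16.8 FPKM in replicate 5.

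Of the 21 mitochondria-specific proteins of the large subunit, 6 rose and 0 fell, and the median log2 change was 0.17. Mrpl42 was at 31.5, 33.5, 37.8 and 34.6 FPKM in the controls and 41.1, 43.0, 54.1 and 51.5 FPKM in Lck-cre, with replicates 7 and 8 highest and no overlap. Its log2 change was 0.45 (SE 0.08, limma adjusted p = 0.00985), and it is listed on chromosome 10 at 95316667 to 95337802, minus strand. Mrpl45, which sits at the tunnel exit and holds the ribosome to the inner membrane, was at 10.9, 11.3, 13.1 and 12.4 FPKM in the controls and 17.3, 14.2, 17.3 and 18.1 FPKM in Lck-cre. It changed by 0.47 (SE 0.09, adjusted p = 0.0121), and without replicate 1 or 5 the adjusted p was 0.0579 and 0.0589.

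Mrpl46 was at 14.0, 13.5, 14.9 and 17.2 FPKM in the controls and 17.9, 17.9, 20.3 and 17.5 FPKM in Lck-cre, so that its highest control and lowest Lck-cre samples nearly touch. The log2 change was 0.30 (SE 0.09, limma adjusted p = 0.0367). With TPM the adjusted p was 0.0787, with quantile normalization 0.0511, and without replicate 1, 2, 3, 5 or 7 it was 0.122, 0.105, 0.0671, 0.122 and 0.0983. The listed span of Mrpl46 overlaps that of Mrps11 on the opposite strand, and Mrps11, at 27.0 ± 2.37 and 29.2 ± 2.80 FPKM (SD, n = 4), did not pass the test. Mrpl58, a peptidyl-tRNA hydrolase built into the large subunit, was at 75.8, 92.7, 99.95 and 90.4 FPKM in the controls and 92.1, 106, 119 and 86.5 FPKM in Lck-cre. Its groups overlap, with a log2 change of 0.17 (SE 0.10, limma adjusted p = 0.225), and without replicate 8 the adjusted p was 0.0382. Mrpl50 passed narrowly, at 10.2 ± 0.521 and 11.9 ± 0.644 FPKM (SD, n = 4, limma adjusted p = 0.0471). Its adjusted p was 0.154 with TPM, 0.0680 with quantile normalization and 0.0594 with median-of-ratios scaling, and without any 1 of replicates 1, 2, 3, 4, 5, 7 and 8 it was 0.0645 to 0.150.

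In the small subunit, 6 of the 16 proteins with a bacterial counterpart rose and 0 fell, with a median log2 change of 0.14. Mrps7, of the subunit's head, was at 14.3, 15.3, 15.3 and 16.8 FPKM in the controls and 18.2, 18.5, 19.6 and 20.7 FPKM in Lck-cre. Its groups did not overlap, and the log2 change was 0.31 (SE 0.07, limma adjusted p = 0.0130). Mrps12, the counterpart of a bacterial protein of the decoding centre, was at 24.4, 24.2, 26.7 and 25.6 FPKM in the controls and 30.1, 31.97, 34.96 and 29.3 FPKM in Lck-cre. It too was separate between groups and changed by 0.32 (SE 0.07, adjusted p = 0.0151). Mrps21, the most abundant of this group, was at 38.3 ± 4.57 and 42.4 ± 6.40 FPKM (SD, n = 4) and did not pass the test (limma adjusted p = 0.387). Without replicate 1 or 5 the adjusted p of Mrps7 was 0.0577 and 0.0587, and without replicate 1, 2 or 5 that of Mrps12 was 0.0583, 0.0517 and 0.0587.

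The 3 Mrps18 paralogs, which are related to the same bacterial protein and occupy different positions in the ribosome, included 2 that rose, Mrps18b and Mrps18c. Mrps18c was at 29.2, 29.5, 32.4 and 32.8 FPKM in the controls and 38.2, 37.5, 57.2 and 45.3 FPKM in Lck-cre, with replicate 7 far above the others. Its log2 change was 0.50 (SE 0.12, limma adjusted p = 0.0178). Mrps18b, a mitochondria-specific paralog of the small subunit, was at 10.98, 10.2, 9.27 and 10.4 FPKM in the controls and 12.4, 11.4, 12.2 and 14.6 FPKM in Lck-cre, and changed by 0.29 (SE 0.09, adjusted p = 0.0425). Mrps18a, in the large subunit, was at 27.6, 24.3, 25.6 and 25.6 FPKM in the controls and 27.9, 29.1, 29.9 and 29.4 FPKM in Lck-cre. Its groups were separate by a narrow margin, but the change of 0.17 (SE 0.06, limma adjusted p = 0.0642) did not pass. The differences among the 3 changes were not tested. Mrps18c lost its call without replicate 1, 2 or 5 (adjusted p 0.0573, 0.0591 and 0.0576), and Mrps18b was called only without replicate 6 among the 8 samples left out, with adjusted p 0.0744 to 0.0950 without each of the others, 0.0612 with quantile normalization and 0.107 with TPM.

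Of the 10 mitochondria-specific proteins of the small subunit, 4 rose and 0 fell, with a median log2 change of 0.20. Mrps33 was at 14.4, 13.0, 15.1 and 13.5 FPKM in the controls and 17.2, 19.0, 22.0 and 17.2 FPKM in Lck-cre, without overlap. Its log2 change was 0.41 (SE 0.09, limma adjusted p = 0.0159), and without replicate 2 the adjusted p was 0.0534. Mrps27, a protein with pentatricopeptide repeats, which bind RNA, rose from 8.89 ± 0.710 to 11.4 ± 1.04 FPKM (SD, n = 4, limma adjusted p = 0.0246). Mrps22, mutated in a human mitochondrial disease, was at 10.4, 10.4, 11.2 and 10.03 FPKM in the controls and 12.9, 13.1, 11.8 and 14.8 FPKM in Lck-cre. All Lck-cre samples were above all controls, and it changed by 0.31 (SE 0.08, limma adjusted p = 0.0257, 0.0601 with TPM). Mrps23, the most abundant of the group, was also separate, at 37.5 ± 2.75 and 44.2 ± 2.87 FPKM (SD, n = 4), and narrowly missed the threshold. Mrps27 lost its call without replicate 1, 2, 4, 5, 7 or 8 (adjusted p 0.0520 to 0.0732) and Mrps22 without replicate 1, 2, 4, 5 or 8 (0.0567 to 0.0840). Mrps23 passed without replicate 3 or 8 (0.0438 and 0.0462).

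Mrps36, of the 2-oxoglutarate dehydrogenase complex, was at 14.9, 14.0, 16.2 and 17.6 FPKM in the controls and 16.6, 21.0, 22.0 and 20.0 FPKM in Lck-cre. Control replicate 4 lay above Lck-cre replicate 5, and the log2 change was 0.33 (SE 0.09, limma adjusted p = 0.0245). Without replicate 1, 2, 5 or 7 its adjusted p was 0.0525, 0.0636, 0.0531 and 0.0685. Of the 35 genes that rose, 7 passed whichever single sample was left out: C1qbp, Mrpl14, Mrpl35, Mrpl42, Mrpl21, Mrpl27 and Mrpl17.

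Seen sample by sample, the 79 genes were shifted in all 4 Lck-cre samples. The median deviation of the 79 from their control means, in log2(FPKM + 0.5), was -0.00, -0.08, 0.09 and -0.01 in control replicates 1 to 4. It was 0.16, 0.17, 0.34 and 0.21 in Lck-cre replicates 5 to 8, so the groups did not overlap and replicate 7 was highest. For all tested genes the same median stayed between -0.02 and 0.02 in every sample. In replicates 5 to 8, 46, 52, 74 and 52 of the 79 genes lay above every control, as did 32.4%, 27.7%, 36.3% and 35.2% of all tested genes. Replicate 7 had the highest value of the 8 samples in 54 of the 79, and in 16.7% of all tested genes. Sting1 was highest in replicate 8, and how its level relates to these shifts was not tested. The summed level of the 77 ribosomal proteins was 1740 ± 82.6 FPKM in the controls and 2024 ± 150 in Lck-cre (SD, n = 4), a ratio of 1.16, and in TPM 4097 ± 97.9 and 4525 ± 257, a ratio of 1.10.

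**Figure D3:**
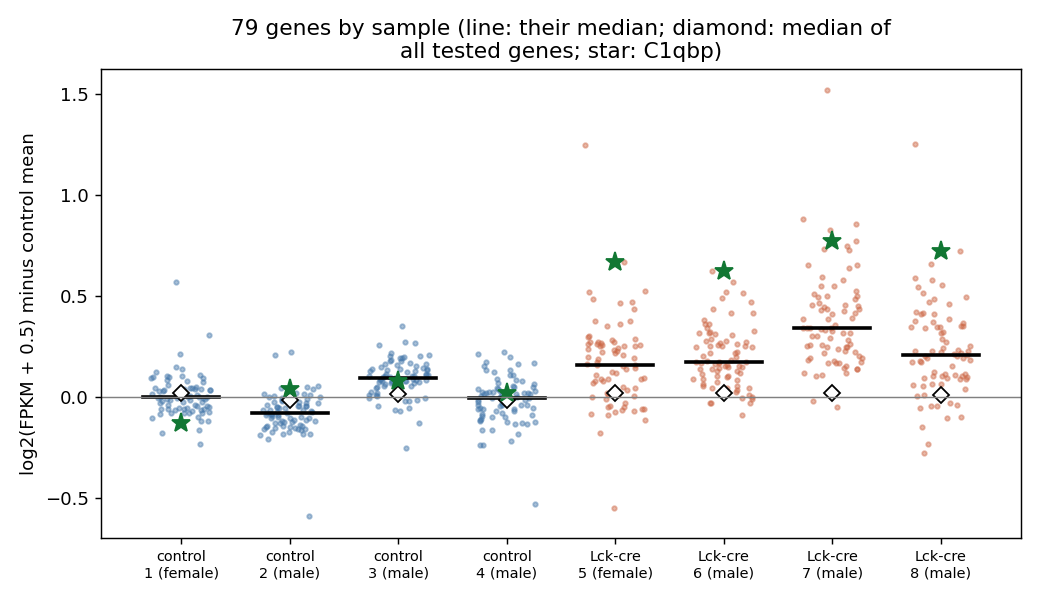
Deviation of each of the 79 genes from its control mean in log2(FPKM + 0.5) (vertical axis) in the 8 samples, with a line at the median of the 79, a diamond at the median of all tested genes and a star for C1qbp. The lines lie at 0.16 to 0.34 in Lck-cre, and the diamonds stay near 0 throughout.

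Levels differed far more between genes than between genotypes. Control means ran from 3.35 FPKM for Mrpl17 to 89.7 for Mrpl58, a ratio of 26.8, with a median of 20.5 beside 12.2 for tested genes. The order of levels was nearly the same in both genotypes (Spearman rho over the 79 genes 0.98), and level and log2 change had a rho of -0.19. Both are descriptions across genes measured in the same libraries. The members most like C1qbp in their deviations within groups were Mrpl16, Mrpl42, Mrpl50, Mrpl45 and Mrpl12, with Pearson r of 0.85, 0.81, 0.75, 0.74 and 0.72 over 8 samples. The median r of C1qbp with the other 78 was 0.35, 10 of the 78 were below 0, and the median over all pairs of the 79 was 0.42. All points share the same libraries and their scaling. Mrpl16, first in that order, rose from 7.29 ± 0.296 to 9.56 ± 0.691 FPKM (SD, n = 4, limma adjusted p = 0.0129), with 0.0579 and 0.0591 without replicate 1 or 5.

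The 79 genes lie on 17 chromosomes, with 12 on chromosome 11 (5 of which rose) and 8 on chromosome 17 (6 rose). In the files 40 of the 79 overlap another listed gene, 12 of them one on the same strand, and 17 of the 35 that rose are among the 40. No source used here gives the strand setting of the counting, so reads of overlapping genes may not be told apart. Pseudogenes of some of the 79 are listed as well. Mrpl48-ps was at 1.77 ± 0.302 and 2.80 ± 0.642 FPKM (SD, n = 4) and rose too, beside Mrpl48 itself at 13.5 ± 2.05 and 18.8 ± 3.41 FPKM. Mrpl23-ps1, at 2.02 ± 0.448 and 2.49 ± 0.435 FPKM (SD, n = 4), did not pass, and Mrpl27-ps and the Mrps36 pseudogenes were too low to be tested. How well reads of a gene and its pseudogene were told apart was not tested, so the values of these genes are uncertain. Without replicate 1, 2, 3, 4, 5, 6 or 7 the adjusted p of Mrpl48 was 0.0664 to 0.148. Scaled coverage gave 35 genes that rose, 33 of them the same, and 0 that fell, at backgrounds of 16.3% and 10.1%. For Mrpl33, Mrps6 and Mrpl48 the ratio of coverage to FPKM was 0.120, 0.139 and 0.475, against a commonest ratio of 7.53 to 7.89, and these FPKM levels are therefore uncertain.

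Other genes of mitochondrial gene expression were read from the same fit, in which 15.4% of tested genes rose and 10.4% fell. Their counts were not tested against those of the 79 genes. Of 5 mitoribosomal proteins that carry other names, 2 rose and 0 fell, with a median log2 change of 0.13. They were Gadd45gip1, at 8.87 ± 0.621 and 11.03 ± 0.819 FPKM (SD, n = 4, limma adjusted p = 0.0219), and Aurkaip1, at 43.0 ± 3.91 and 51.7 ± 4.05 FPKM (0.0439, with 0.0753 for TPM and 0.0575 for quantile normalization). Of 27 tested genes for ribosome assembly and ribosomal RNA modification, 5 rose and 0 fell (median 0.10). Tfb1m, which dimethylates the small ribosomal RNA of mitochondria, rose from 3.22 ± 0.392 to 4.81 ± 0.357 FPKM, and Noa1, a GTPase of ribosome assembly, from 10.95 ± 0.639 to 14.0 ± 0.816 FPKM (SD, n = 4, limma adjusted p = 0.011 and 0.0123). Without replicate 1 or 5 the adjusted p was 0.0526 and 0.0540 for Tfb1m and 0.0583 and 0.0593 for Noa1. Gadd45gip1 lost its call without replicate 1, 2, 5 or 7 (0.0646 to 0.0696) and Aurkaip1 without replicate 1, 2, 4, 5, 6 or 7 (0.0722 to 0.121).

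Of 14 tested translation factors 4 rose and 0 fell (median 0.15). The elongation factors Tsfm, from 12.5 ± 0.446 to 17.3 ± 0.700 FPKM, and Gfm1, from 7.19 ± 0.188 to 9.45 ± 0.538 FPKM (SD, n = 4), had limma adjusted p of 0.00750 and 0.011. Of 17 mitochondrial aminoacyl-tRNA synthetases, which load amino acids onto tRNA, 4 rose and 1 fell (median 0.05). Rars2, for arginine, rose from 6.75 ± 0.413 to 8.79 ± 0.118 FPKM (SD, n = 4, limma adjusted p = 0.0119). Vars2, for valine, fell from 45.2 ± 3.17 to 35.1 ± 4.85 FPKM (SD, n = 4, limma adjusted p = 0.0281). Without replicate 1 or 5 the adjusted p of Gfm1 was 0.0514 and 0.0527, that of Rars2 without replicate 5 was 0.0505, and that of Vars2 without replicate 1, 2, 3, 5, 7 or 8 was 0.0533 to 0.120.

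Of 19 genes of mitochondrial transcription, replication and RNA processing, 3 rose and 1 fell (median 0.08). Elac2, which trims tRNA ends, was at 13.5 ± 0.423 and 16.4 ± 0.550 FPKM, and Prorp, the nuclease subunit of mitochondrial RNase P, at 3.08 ± 0.378 and 4.20 ± 0.293 FPKM (SD, n = 4, limma adjusted p = 0.0159 and 0.0214). Polg, the mitochondrial DNA polymerase, fell from 55.6 ± 4.71 to 43.9 ± 3.58 FPKM (SD, n = 4, limma adjusted p = 0.0211). Slirp, an RNA-binding protein, had a change of 0.70 that did not pass (limma adjusted p = 0.0789), with 8.34, 6.79, 4.14 and 2.63 FPKM in Lck-cre. Elac2 lost its call without replicate 1, 2 or 5 (0.0511 to 0.0544), Prorp without replicate 1, 2, 4, 5 or 7 (0.0533 to 0.0831) and Polg without replicate 1, 2, 5 or 7 (0.0577 to 0.0871).

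The ribosomal RNAs that these proteins bind are transcribed from mitochondrial DNA. Among 15 mitochondrially encoded genes 1 rose and 0 fell, while all 15 had a change above 0 (median 0.24). The 1 was mt-Rnr1, the RNA of the small subunit, at 136, 131, 165 and 150 FPKM in the controls and 215, 189, 196 and 214 FPKM in Lck-cre (log2 change 0.49, SE 0.09, limma adjusted p = 0.00985). Its groups did not overlap, and without replicate 1 or 5 the adjusted p was 0.0512 and 0.0513. The RNA of the large subunit, mt-Rnr2, was at 174 ± 16.5 and 203 ± 19.6 FPKM (SD, n = 4) and did not pass (limma adjusted p = 0.106). The levels of both depend on how ribosomal RNA was removed or mRNA selected, which no source used here gives.

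**Figure D4:**
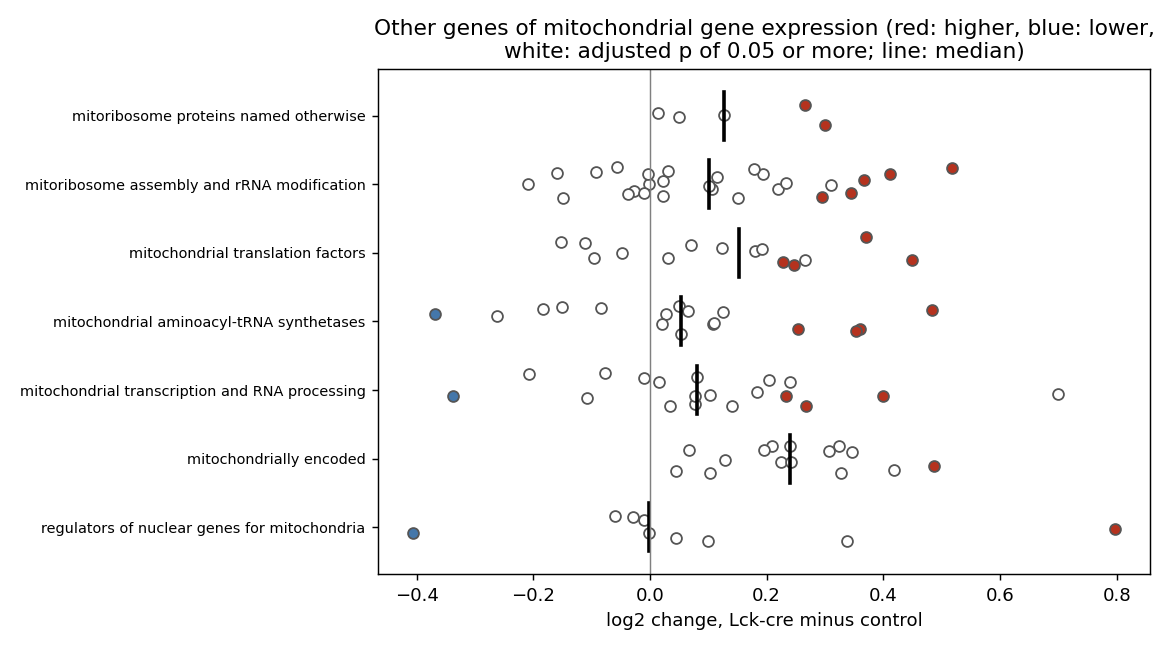
Fitted log2 change (horizontal axis) of every tested gene of 7 lists of other genes of mitochondrial gene expression and its regulators, 1 point a gene, with a bar at the median of each list. Red points rose, blue points fell and white points did not pass the test, and the medians run from -0.00 for the regulators to 0.24 for the mitochondrially encoded genes.

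Of 9 tested regulators of nuclear genes for mitochondria, 1 rose and 1 fell (median -0.00). Myc, a transcription factor known to raise ribosome production, was at 13.4, 13.3, 11.8 and 14.3 FPKM in the controls and 29.9, 17.5, 18.7 and 29.8 FPKM in Lck-cre (log2 change 0.80, limma adjusted p = 0.0129). Its Lck-cre values were all above the controls but fell into a higher pair, replicates 5 and 8, and a lower pair. Esrra, a nuclear receptor for genes of oxidative metabolism, fell from 26.3 ± 1.39 to 19.8 ± 2.16 FPKM (SD, n = 4, limma adjusted p = 0.0135). Nrf1, Gabpa and Yy1, whose motifs were searched above, had mean levels of 43.4 and 42.9, 24.3 and 25.1, and 40.4 and 39.5 FPKM in the controls and Lck-cre, and none passed (limma adjusted p = 0.914, 0.558 and 0.749). Without replicate 1 or 5 the adjusted p was 0.0609 and 0.0612 for Myc and 0.0648 and 0.0644 for Esrra.

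Genes of the cytosolic ribosome, and of the respiratory chain together with ATP synthase, picked by name, also held members that rose and none that fell. Of 76 cytosolic ribosomal proteins 42 rose and 0 fell, with a median log2 change of 0.32. Of 80 tested nuclear genes of the respiratory chain and ATP synthase 27 rose and 0 fell, with a median of 0.24. The corresponding values for the 79 genes were 35, 0 and 0.22. Of all tested genes 15.4% rose and 10.4% fell. With TPM, 29, 15 and 20 of the 3 sets rose and 0 fell in each, beside 10.5% and 16.8% of all tested genes. Rps12 was at 123, 134, 134 and 128 FPKM in the controls and 184, 192, 178 and 202 FPKM in Lck-cre, with no overlap (limma adjusted p = 0.00565). Cox7b, a subunit of cytochrome c oxidase, rose from 58.2 ± 1.91 to 79.8 ± 8.04 FPKM, and Sdhb, of succinate dehydrogenase, from 61.8 ± 2.42 to 76.5 ± 6.20 FPKM (SD, n = 4, limma adjusted p = 0.00880 and 0.0119). The counts and medians of the 3 sets were not tested against each other.

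**Figure D5:**
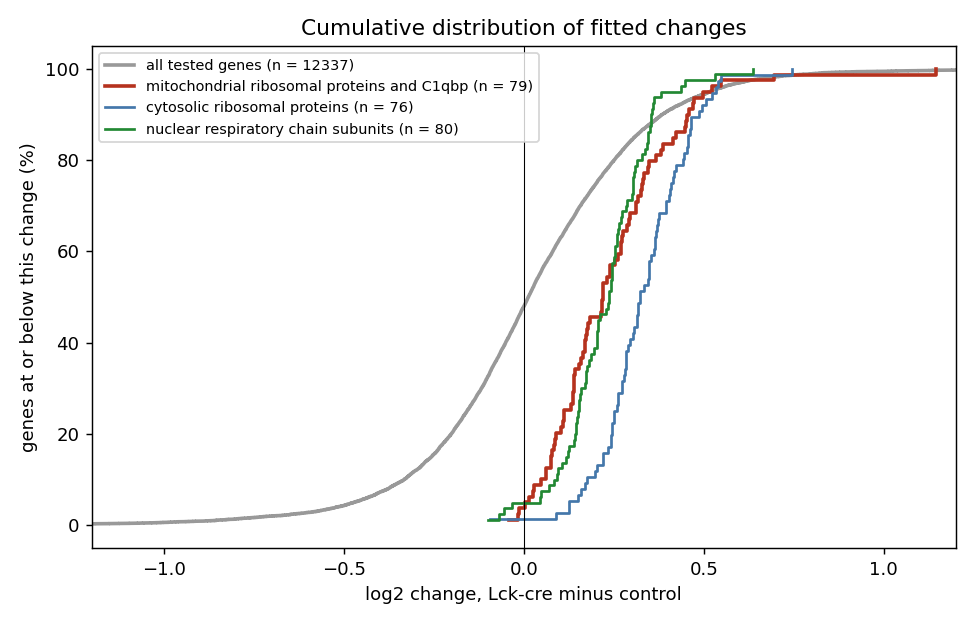
Share of genes (vertical axis, %) at or below each fitted log2 change (horizontal axis) for the 79 genes, 76 cytosolic ribosomal proteins, 80 nuclear respiratory chain subunits (with ATP synthase) and all 12337 tested genes. The medians are 0.22, 0.32, 0.24 and 0.01 in that order, and the curves of the 3 gene sets rise to the right of that of all genes.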

How the data were processed

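RNA of 8 samples, 4 a genotype, was sequenced. HISAT and Bowtie2 were used, per the submitters' processing notes, with their roles, versions, the genome build and the quantifier not given in the sources used here. The authors deposited FPKM, fragments scaled by length and library size, and TPM, which sums to 1000000 in each sample. They also deposited coverage, the signal per base of each gene. Entries sharing a gene ID were summed here, and positions are as the files list them. The test was limma 3.58.1 (R 4.3.3) on log2(FPKM + 0.5) for genes reaching 1 FPKM in 4 or more samples, two-sided, with terms for sex and genotype, a trended prior and Benjamini-Hochberg adjustment over all genes. This scale understates changes of low genes. Other steps ran in Python 3.11.15 with SciPy 1.17.1, NumPy 2.4.6, pandas 2.3.3 and matplotlib 3.10.9. The fit was also tested on simulated data. There, 50 genes with a mean log2 level above 2 were raised at each of 4 sizes, and 12137 genes were unchanged. It found 22% of genes with a log2 rise of 0.3, 68% at 0.58, 98% at 1 and 100% at 2, and called 7 of the 12137. In the data 25.8% of tested genes passed, a far larger share than was moved in the simulation. The simulated shares therefore need not hold for the data.

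The members and lists were chosen with earlier results of these data known. Named genes were C1qbp, Sting1, in each of 4 groups the 3 called members with the smallest adjusted p, the one with the largest change and the most abundant, 5 members and 2 ribosomal RNAs given whatever their result, up to 2 genes a direction of each other list, and the 5 members most like C1qbp. Mrpl27, Mrpl3, Mrpl18, Mrpl48, Mrpl33, Mrpl30, Mrps6, Mrps10 and Mrps11 were named after their values were seen. So were Slirp, Nrf1, Gabpa, Yy1, pseudogenes and single markers. A gene that this rule names is not reported here. Of 145 list entries 1 was not found. Alternatives were TPM, quantile or median-of-ratios scaling, pseudocounts of 0.1 and 1, other filters, males only, no sex term, leaving out each sample and an adjusted p under 0.01. Scaled coverage was added after seeing the data.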

Additional observations from a re-analysis of the deposited data

Results flagged for a closer look

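A sample stood apart from the other 3 of its group, by Dixon's ratio of gap to range, in 3 of 90 groups of 4 examined, and chance gives about 1 in 20. Mrpl46 was at 20.3 FPKM in Lck-cre replicate 7, beside 17.5 to 17.9 in the others. Polg was at 49.3 FPKM in Lck-cre replicate 6, beside 41.9 to 42.4. Rpl14, a cytosolic ribosomal protein, was at 137 FPKM in control replicate 3, beside 112 to 114. An interaction of sex and genotype, with 1 female a group, passed in 0 of the 79 genes and 0 of 12337 tested genes by limma at an adjusted p under 0.05, and in 2 of the 79 at an unadjusted p under 0.05.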

How the results depend on the processing

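The count of genes of the 79 that rose, 35, became 20 with TPM, 8 with no filter (background 2.41%), 9 in males only (background 3.37%) and 4 at an adjusted p under 0.01 (background 3.11%). It was 9 to 34 without each single sample: 32, 34 and 24 without replicate 3, 6 or 8 (backgrounds 15.4%, 17.9% and 10.5%), and as given above for the others. It was 24 with quantile normalization (13.9%), 32 with median-of-ratios scaling (14.7%), 37 with no sex term (16.3%), 34 and 35 with pseudocounts of 0.1 and 1 (15.3% and 15.5%), 35 with a filter on the mean (15.4%) and 35 with scaled coverage (16.3%). The count that fell was 0 in every setting. The median log2 change was 0.15 with TPM, which moves the median of all tested genes from 0.01 to -0.06, and 0.18 to 0.25 without each single sample. The change of Mrpl24 turned from -0.04 to 0.0387 in males only and ran from -0.0765 to 0.0387 without each single sample, and it passed the test in none of them. The cause of lost calls was not tested. No paired analysis was possible because the groups share no replicate numbers. Without read counts, depth cannot be used to weigh single values.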
